A study of Saccharomyces cerevisiae with 12 samples.

Results

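The 35 genes described here make, store and move ergosterol, the sterol of fungal membranes. They were chosen by name to cover the mevalonate and ergosterol pathway in order, its regulators, and the genes of sterol esters and sterol transport. Each had 1 probe set on the array, and together they are 35 of the 5449 genes of Saccharomyces cerevisiae with a probe set tested. The diploid strain BY4743 was grown in rich medium (YPD) at 30 °C in HARVs, rotating vessels filled with medium. In low-shear modeled microgravity (LSMMG) the vessel turned in the vertical position, and in the control it turned lying flat. RNA was measured on 12 Affymetrix arrays, 3 after 5 generations in LSMMG (SMG 5), 3 after 25 generations in LSMMG (SMG 25) and 6 of control cultures (Ctrl). The Ctrl arrays of both times were joined, as in the study's methods. By their titles 3 of them belong to 5 generations (Ctrl 5) and 3 to 25 generations (Ctrl 25), although the growth description in the labels gives 5 generations for every array and a figure legend of the study places more control arrays at 5 than at 25 generations. Comparisons that divide the control arrays by generation rest on the titles. All groups shared the strain, the medium and the kind of vessel. Cultures were diluted about every 5 generations, so those of 25 generations had been through more dilutions than those of 5.

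Sterol synthesis starts from acetyl-CoA. The mevalonate part builds isoprenoid units, which are joined to farnesyl diphosphate and then to squalene, and the first sterol, lanosterol, is trimmed and desaturated to ergosterol in the endoplasmic reticulum. Several of these steps use molecular oxygen and heme, and in yeast the pathway is known for its control by the transcription factors Upc2 and Ecm22, which respond to sterol level. Surplus sterol is esterified and stored in lipid droplets, and yeast takes up sterol from the medium mainly when oxygen is short.

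A value is a ratio to the gene's own level, close to 1 at the median of its 12 arrays, so levels of different genes could not be compared and the marker genes that the strain lacks could not be checked by level. A gene was said to rise or fall when limma gave an adjusted p under 0.05 over all 8968 probe sets tested, and changes of at least 2-fold were counted apart. The ratios describe RNA of whole cultures, so a change in every cell and a larger change in some cells cannot be told apart. The sources do not say which arrays share a culture, so p-values measure the spread between these arrays, which may be technical. Ctrl 5 replicates 1 and 2 stood apart from the other 4 Ctrl arrays. Over the 21 sterol genes that rose or fell at either time, with 0 at the mean of those 4 arrays and 1 at the LSMMG mean on the log2 scale, they lay at a median of 0.557 and 0.474. In 11 of the 21 genes both lay farther in the direction of LSMMG than every other Ctrl array, also where they went past the LSMMG mean. That count was not made over all probe sets, so it cannot be called particular to the sterol genes. The study's text mentions 1 aberrant control array that was dropped without saying which, and results are given with and without these 2 arrays. They were singled out after the values were seen, for lying toward LSMMG, so larger changes without them follow from that choice, and the values without them are a description.

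In LSMMG the sterol genes did not move as a block. After 5 generations 6 of the 35 rose and 11 fell, and after 25 generations 8 rose and 8 fell. At 5 generations 48.6% of the sterol genes passed, beside 40.8% of all probe sets tested (22.5% higher, 18.3% lower) and 61% of those with a gene name (34.2% higher, 26.8% lower). At 25 generations 45.7% passed, beside 39.6% of all probe sets (21.7% higher, 17.9% lower) and 58.4% of named ones (33% higher, 25.4% lower). The sterol genes were thus called no more often than named genes at large, and at 5 generations falls outnumbered rises among them while rises outnumbered falls among named genes. The median log2 fold change of the 35 was -0.11 in SMG 5 and 0.13 in SMG 25, and that of all named probe sets was 0.13 and 0.15.

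Of the 35 genes, 12 passed at both times, 5 in the higher and 7 in the lower direction. A further 5 passed only at 5 generations, 4 only at 25 generations and 14 at neither. The 7 genes that fell at both times were ERG10, HMG1, HMG2, ERG7, ERG2, ERG4 and AUS1, which stand at the entry, in the middle, at the end of synthesis and in uptake. The 5 that rose at both times were MVD1, ERG9, ERG28, DAP1 and HES1. Changes were mostly small, and 21 of the 35 genes stayed within 1.5-fold of Ctrl at both times, against 46.7% of named probe sets. The smallest fold change that passed was 1.14-fold, for ERG1 at 5 and for ERG20 at 25 generations. At 5 generations 1 gene rose (HES1) and 3 fell (HMG1, ERG10, ERG2) by at least 2-fold, beside 14.4% of all probe sets (9.02% higher, 5.4% lower). At 25 generations 2 rose (ARE2, HES1) and 0 fell by at least 2-fold, beside 13.2% of all probe sets (8.06% higher, 5.12% lower). All SMG 5 arrays lay above all Ctrl arrays for 6 of the sterol genes and below them for 9, beside 20.3% and 17.7% of all probe sets. All SMG 25 arrays lay above all Ctrl arrays for 7 and below them for 6, beside 20.2% and 17.2%.

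**Figure D1:**
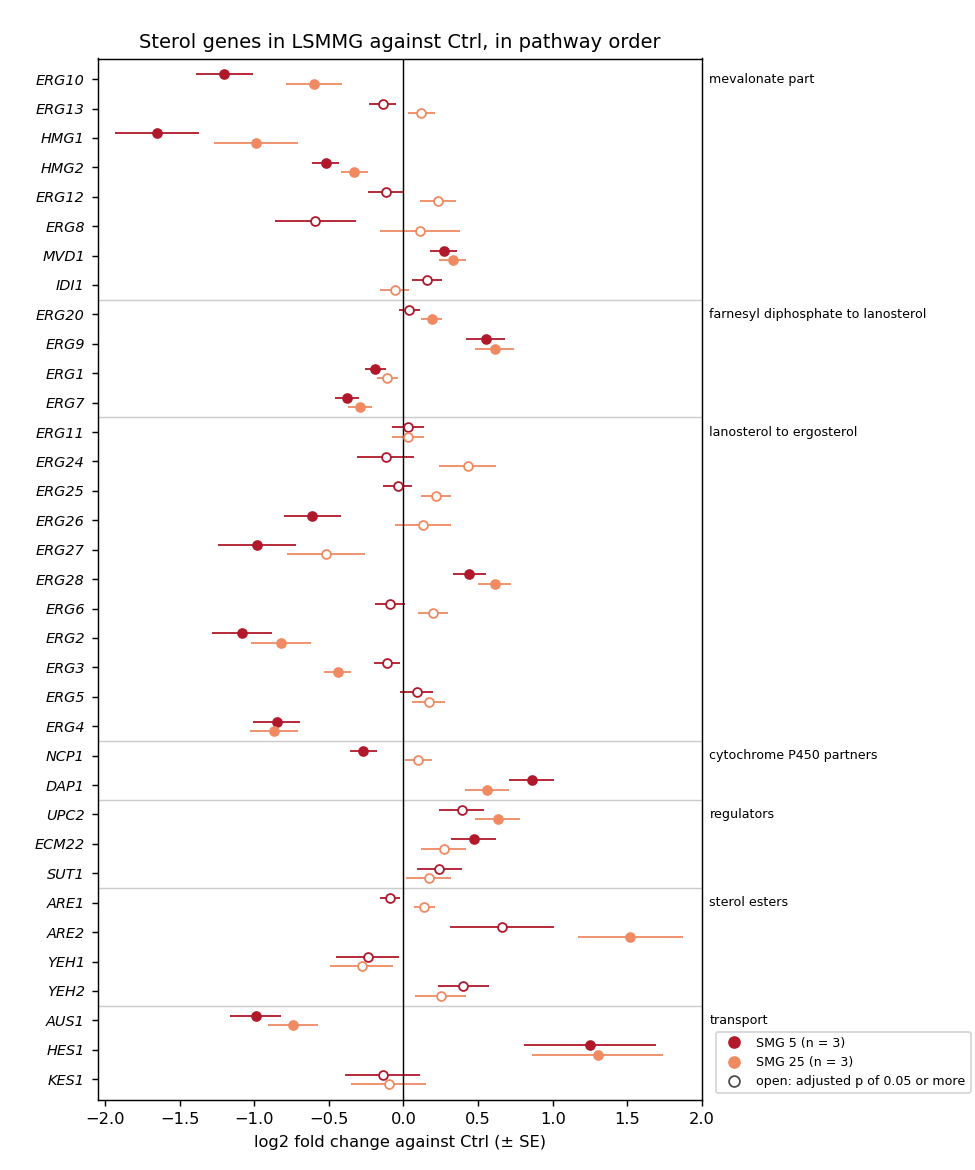
Log2 fold change of each of the 35 sterol genes against Ctrl (horizontal axis, point ± SE) in SMG 5 (red) and SMG 25 (orange), in pathway order from top to bottom. Filled points had an adjusted p under 0.05 and open points did not. The lowest value is -1.65 for HMG1 in SMG 5 and the highest 1.52 for ARE2 in SMG 25. Higher and lower genes both occur along the pathway, in SMG 5 with a lower run from ERG10 to ERG8 and a higher one from MVD1 to ERG9.

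Among the 8 genes of the mevalonate part, 1 rose and 3 fell at each time. HMG1 encodes 1 of the 2 HMG-CoA reductases, the main control point of the pathway. Its ratios were 0.511, 0.591 and 0.560 in SMG 5 and 0.777, 0.827 and 1.02 in SMG 25, against a lowest of 0.991, a median of 2.11 and a highest of 2.36 in Ctrl. Every SMG 5 array lay below every Ctrl array, while in SMG 25 the highest array lay above the lowest Ctrl array, Ctrl 5 replicate 2. The log2 fold change was -1.65 (standard error, SE, 0.28, adjusted p = 0.000578) at 5 and -0.99 (SE 0.28, adjusted p = 0.0134) at 25 generations, a 3.13-fold and a 1.99-fold fall, and without the 2 outlying Ctrl arrays it was -2.01 and -1.36. The call at 25 generations was lost without SMG 25 replicate 1 (-0.91, adjusted p = 0.0608) or replicate 2 (-0.96, adjusted p = 0.0516).

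HMG2 encodes the other reductase, the one whose protein is degraded when the pathway is full. Its ratios were 0.738, 0.783 and 0.811 in SMG 5 and 0.832, 0.843 and 1.005 in SMG 25, against 0.996, 1.10 and 1.25 (lowest, median, highest) in Ctrl. The SMG 5 arrays lay below all Ctrl arrays, and in SMG 25 only replicate 3 overlapped with them. The gene fell by 0.52 on the log2 scale at 5 generations (SE 0.09, adjusted p = 0.000808) and by 0.33 at 25 generations (SE 0.09, adjusted p = 0.0144), and the second call was lost without SMG 25 replicate 1 (-0.28, adjusted p = 0.0776) or replicate 2 (-0.29, adjusted p = 0.0724). With the t-test of the study's methods HMG2 did not pass at 25 generations either (adjusted p = 0.0905).

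ERG10 encodes acetoacetyl-CoA thiolase, the first enzyme of the pathway. Its ratios were 0.616, 0.583 and 0.628 in SMG 5 and 0.845, 0.836 and 1.10 in SMG 25, against 0.954, 1.62 and 1.73 (lowest, median, highest) in Ctrl. All SMG 5 arrays were below all Ctrl arrays, and SMG 25 replicate 3 was above both Ctrl 5 replicates 1 and 2. The log2 fold change was -1.20 (SE 0.19, adjusted p = 0.000419) at 5 and -0.60 (SE 0.19, adjusted p = 0.0266) at 25 generations, and -1.44 and -0.84 without those 2 Ctrl arrays. Leaving out any 1 of 5 arrays took the call at 25 generations away, with adjusted p = 0.0513 without Ctrl 5 replicate 3, 0.0511 without Ctrl 25 replicate 1, 0.0506 without Ctrl 25 replicate 3, 0.105 without SMG 25 replicate 1 and 0.107 without SMG 25 replicate 2. With the t-test of the study's methods ERG10 did not pass at 25 generations either (adjusted p = 0.0558).

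MVD1, mevalonate diphosphate decarboxylase, was the gene of this stretch that rose, with log2 fold changes of 0.27 (adjusted p = 0.0224) at 5 and 0.33 (adjusted p = 0.00837) at 25 generations. Its call at 5 generations was lost when any 1 of the SMG 5 arrays was left out, with adjusted p between 0.0563 and 0.0873, and against the Ctrl 5 arrays alone (0.19, adjusted p = 0.125). ERG13 (HMG-CoA synthase), ERG12 (mevalonate kinase) and IDI1 (isopentenyl diphosphate isomerase) did not pass at either time, and their log2 fold changes lay between -0.14 and 0.23. ERG8, phosphomevalonate kinase, had ratios of 0.628, 0.650 and 0.701 in SMG 5, against 0.963, 1.04 and 1.24 in SMG 25 and 0.539, 1.24 and 1.30 (lowest, median, highest) in Ctrl. The SMG 5 arrays lay together with Ctrl 5 replicates 1 and 2 and far below the other 4 Ctrl arrays. Its log2 fold change at 5 generations was -0.59 (SE 0.27, adjusted p = 0.104) with all arrays, -0.77 (adjusted p = 0.00615) without Ctrl 5 replicate 2 and -0.94 without both.

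**Figure D2:**
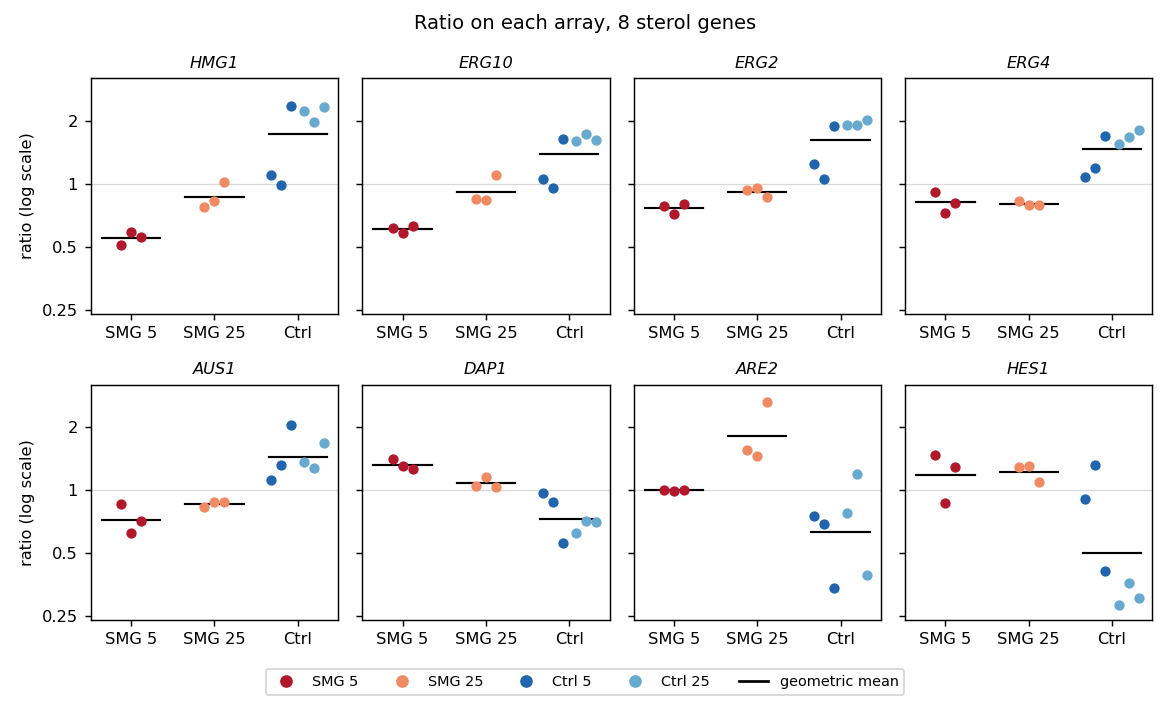
Ratio on each array (vertical axis, log scale) for 8 sterol genes in SMG 5, SMG 25 and Ctrl, with Ctrl 5 arrays in dark and Ctrl 25 arrays in light blue and the geometric mean as a line. In HMG1, ERG10 and ERG2 the Ctrl arrays fall into 4 high ones and the lower Ctrl 5 replicates 1 and 2, and in HES1 into 4 low ones and the same 2 higher.

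From farnesyl diphosphate to lanosterol the 4 genes split in direction. ERG9, squalene synthase, which commits farnesyl diphosphate to sterols, rose by 0.55 on the log2 scale at 5 (SE 0.13, adjusted p = 0.00611) and by 0.61 at 25 generations (SE 0.13, adjusted p = 0.00335). All its LSMMG arrays, 1.07 to 1.15 in SMG 5 and 1.13 to 1.18 in SMG 25, lay above the highest Ctrl array at 0.928. The next enzymes went the other way. ERG7, lanosterol synthase, fell by 0.38 (adjusted p = 0.00262) and 0.29 (adjusted p = 0.0129), and ERG1, squalene epoxidase, fell by 0.19 at 5 generations (adjusted p = 0.0335) and had -0.11 at 25. ERG7 lost its call at 25 generations without SMG 25 replicate 1 (-0.26, adjusted p = 0.0633) and against the Ctrl 25 arrays alone (-0.21, adjusted p = 0.0577). ERG1 lost its call without any 1 of the SMG 5 arrays or without Ctrl 5 replicate 1, with adjusted p between 0.0549 and 0.116. ERG20, farnesyl diphosphate synthase, had 0.04 at 5 generations and rose by 0.19 at 25 (adjusted p = 0.0488), a call lost when any 1 of 10 arrays was left out, namely any LSMMG array, Ctrl 5 replicate 2 or 3, or Ctrl 25 replicate 1 or 3 (adjusted p 0.0520 to 0.181), and against the Ctrl 25 arrays alone (0.20, adjusted p = 0.0672).

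The 11 genes that turn lanosterol into ergosterol included 4 that fell and 1 that rose at 5 generations, and 3 that fell and 1 that rose at 25. ERG2 encodes the sterol isomerase near the end of the pathway. Its ratios were 0.782, 0.722 and 0.802 in SMG 5 and 0.932, 0.960 and 0.871 in SMG 25, against 1.05, 1.90 and 2.03 (lowest, median, highest) in Ctrl. All 6 LSMMG arrays lay below all 6 Ctrl arrays. ERG2 thus fell by 1.08 on the log2 scale at 5 (SE 0.20, adjusted p = 0.000871) and by 0.82 at 25 generations (SE 0.20, adjusted p = 0.00519), with -1.34 and -1.07 without the 2 outlying Ctrl arrays.

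ERG4, the reductase of the last step, fell by 0.85 (adjusted p = 0.00113) and 0.87 (adjusted p = 0.000984) on the log2 scale, and its LSMMG arrays reached at most 0.920 in SMG 5 and 0.831 in SMG 25 against at least 1.08 in Ctrl. ERG2 and ERG4 held their calls at both times when any 1 array was left out and under every other setting tried. ERG3, the sterol desaturase between them, showed another pattern, with a log2 fold change of -0.11 at 5 generations and a fall of 0.44 at 25 (SE 0.09, adjusted p = 0.00278). Its ratios were 0.982, 1.02 and 0.999 in SMG 5, 0.806, 0.876 and 0.717 in SMG 25, and 0.994, 1.06 and 1.26 (lowest, median, highest) in Ctrl, so only the SMG 25 arrays were below all Ctrl arrays. ERG5, the cytochrome P450 that acts as the other late desaturase, had 0.09 and 0.17 and did not pass at either time.

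The complex that removes methyl groups from the sterol nucleus is formed by Erg25 (methyl oxidase), Erg26 (decarboxylase) and Erg27 (keto reductase), held together by the scaffold protein Erg28. Its genes diverged. ERG27 had ratios of 0.730, 0.741 and 0.758 in SMG 5 and 0.966, 0.983 and 1.11 in SMG 25, against 0.828, 1.74 and 1.99 (lowest, median, highest) in Ctrl. The SMG 5 arrays were below all Ctrl arrays, and SMG 25 arrays overlapped with Ctrl 5 replicates 1 and 2 alone. The log2 fold change was -0.98 (SE 0.26, adjusted p = 0.00898) at 5 generations, and -0.52 (adjusted p = 0.130) at 25, where it became -0.69 (adjusted p = 0.0101) without Ctrl 5 replicate 2 and -0.86 without both. Against the controls of its own generation alone ERG27 had -0.65 (adjusted p = 0.0507) at 5 generations, which did not pass, and fell by 0.85 (adjusted p = 0.0103) at 25. ERG26 fell by 0.61 at 5 generations (adjusted p = 0.0246) and had 0.13 at 25, and its call was lost without SMG 5 replicate 1 (adjusted p = 0.0672) or replicate 2 (adjusted p = 0.0952), and against the Ctrl 5 arrays alone (-0.41, adjusted p = 0.142). ERG28 rose by 0.44 (adjusted p = 0.00912) and 0.61 (adjusted p = 0.00121), and ERG25 had -0.04 and 0.22 and did not pass, but passed at 25 generations against the Ctrl 25 arrays alone (0.33, adjusted p = 0.0242).

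The remaining genes of this stretch did not pass. ERG11, the lanosterol demethylase that azole antifungals inhibit, had a log2 fold change of 0.03 (SE 0.11) at both times. ERG6, the methyltransferase that acts on the sterol side chain, had -0.09 and 0.20. ERG24, a sterol reductase, had -0.12 at 5 and 0.43 (adjusted p = 0.0935) at 25 generations, which passed without Ctrl 25 replicate 3 (0.51, adjusted p = 0.0464). The 2 partners of cytochrome P450 moved unequally. DAP1, a heme-binding protein that supports Erg11, rose by 0.86 (SE 0.15, adjusted p = 0.000797) and 0.56 (SE 0.15, adjusted p = 0.0113), with ratios from 1.27 to 1.40 in SMG 5 and from 1.03 to 1.15 in SMG 25 against 0.559 to 0.975 in Ctrl. At 25 generations its call was lost without SMG 25 replicate 2 (0.51, adjusted p = 0.0540). NCP1, the reductase that passes electrons to Erg11 and Erg5, fell by 0.27 at 5 generations (adjusted p = 0.0291) and had 0.10 at 25, and that call was lost without any 1 of 5 arrays, namely the 3 SMG 5 arrays, Ctrl 5 replicate 3 and Ctrl 25 replicate 3 (adjusted p 0.0515 to 0.137).

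**Figure D3:**
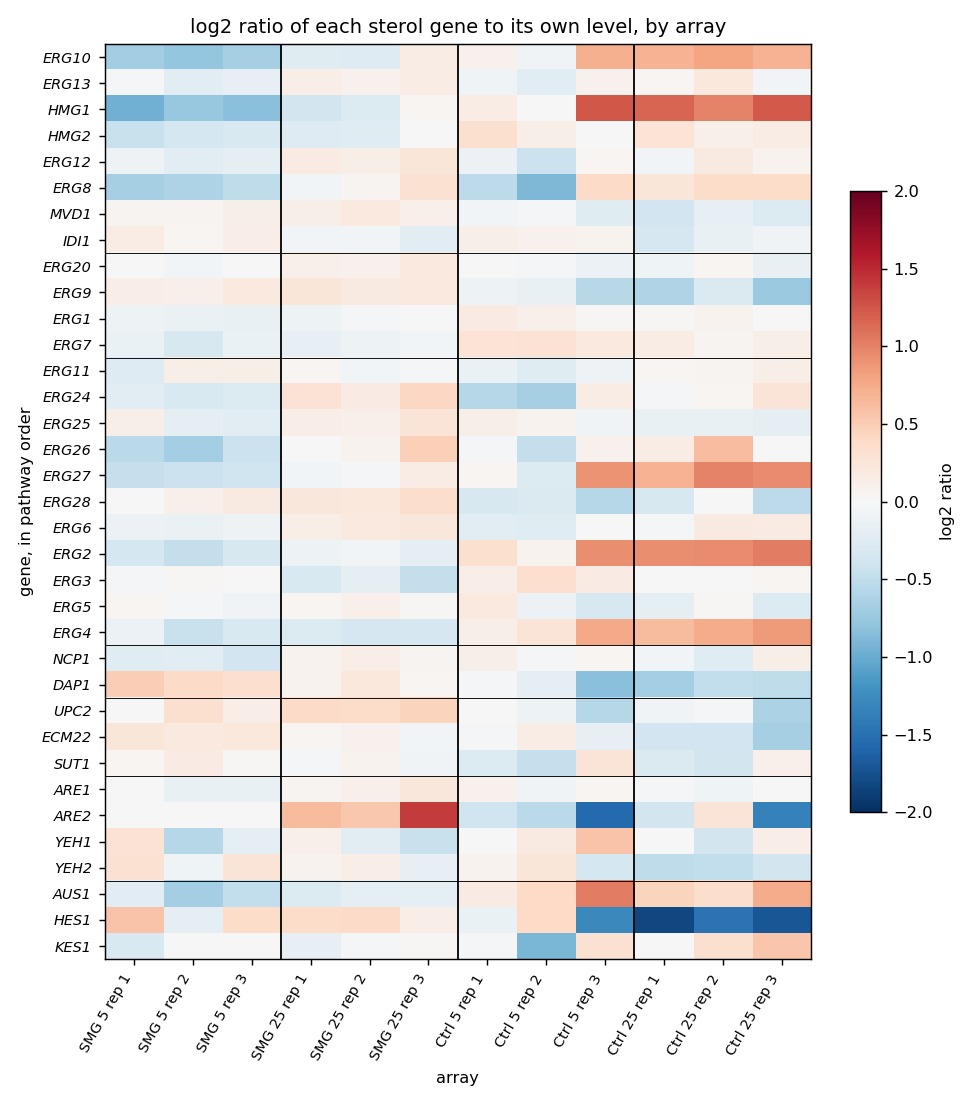
Log2 ratio of the 35 sterol genes (rows, in pathway order) on the 12 arrays (columns), red above and blue below the gene's own level. ERG10, HMG1, ERG27, ERG2 and ERG4 are red on Ctrl 5 replicate 3 and the 3 Ctrl 25 arrays, paler or pale blue on Ctrl 5 replicates 1 and 2, and mostly blue in SMG 5.

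The 3 regulators among the 35 genes had positive log2 fold changes at both times, and each time 1 passed. UPC2, the sterol-sensing activator of the ERG genes, had ratios of 1.01, 1.24 and 1.10 in SMG 5 and 1.31, 1.28 and 1.36 in SMG 25, against 0.645, 0.944 and 0.990 (lowest, median, highest) in Ctrl. All LSMMG arrays lay above all Ctrl arrays. Against Ctrl, UPC2 was 0.39 higher on the log2 scale at 5 generations (SE 0.15, adjusted p = 0.0552), which did not pass, and rose by 0.63 at 25 (SE 0.15, adjusted p = 0.00506). The value at 5 generations passed without Ctrl 5 replicate 1, Ctrl 5 replicate 2 or Ctrl 25 replicate 2 (adjusted p 0.0371 to 0.0471). With all arrays it passed under quantile normalization, a trended and robust prior, array weights, a replicate block or named probe sets only (adjusted p 0.00825 to 0.0411). It did not pass with the methods' t-test or against the Ctrl 5 arrays alone.

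ECM22, its paralog, had ratios of 1.19, 1.15 and 1.16 in SMG 5 and 1.03, 1.06 and 0.963 in SMG 25, against 0.633, 0.829 and 1.10 in Ctrl. The SMG 5 arrays were above all Ctrl arrays and the SMG 25 arrays overlapped with Ctrl 5 replicates 1 and 2. The gene rose by 0.47 at 5 generations (adjusted p = 0.0223) and had 0.27 (adjusted p = 0.166) at 25. The first call was lost without any 1 of the SMG 5 arrays (adjusted p 0.0581 to 0.0734), and the second value passed without Ctrl 5 replicate 2 (0.35, adjusted p = 0.0353). Against the controls of its own generation alone the calls changed places, with 0.24 (adjusted p = 0.111) for ECM22 at 5 generations and a rise of 0.50 (adjusted p = 0.00257) at 25. SUT1, a regulator that favors sterol uptake, had 0.24 and 0.17 and passed at neither time, but did so at 5 generations without Ctrl 5 replicate 3 (0.33, adjusted p = 0.0482).

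Sterol esters are made by the acyltransferases Are1 and Are2, and Are2 is the major one in cells with oxygen. ARE2 had ratios of 1.0, 0.990 and 1.01 in SMG 5 and 1.55, 1.46 and 2.64 in SMG 25, against 0.339, 0.721 and 1.20 (lowest, median, highest) in Ctrl. The SMG 25 arrays were above all Ctrl arrays, replicate 3 most of all, while the SMG 5 arrays overlapped with Ctrl 25 replicate 2. The log2 fold change was 0.66 (SE 0.35, adjusted p = 0.156) at 5 and 1.52 (SE 0.35, adjusted p = 0.00402) at 25 generations, the largest rise of the 35 genes, and 0.75 and 1.61 without the 2 outlying Ctrl arrays. The value at 5 generations passed without Ctrl 25 replicate 2 (0.84, adjusted p = 0.0457). ARE1 had ratios of 1.002, 0.906 and 0.899 in SMG 5 and 1.04, 1.07 and 1.17 in SMG 25, against 0.943, 0.985 and 1.06 in Ctrl, and log2 fold changes of -0.09 and 0.14 that did not pass.

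YEH1 and YEH2, genes of steryl ester hydrolases that release stored sterol, did not pass at either time. YEH1 had ratios of 1.22, 0.674 and 0.874 in SMG 5 and 1.08, 0.851 and 0.731 in SMG 25, against 0.772, 1.05 and 1.49 in Ctrl, with log2 fold changes of -0.24 and -0.28. YEH2 had ratios of 1.23, 0.946 and 1.20 in SMG 5 and 1.05, 1.10 and 0.892 in SMG 25, against 0.701, 0.780 and 1.18 in Ctrl, with log2 fold changes of 0.40 (adjusted p = 0.0899) and 0.25. Both genes had overlapping groups at both times. YEH2 passed at 5 generations without Ctrl 5 replicate 1 (0.46, adjusted p = 0.0490) or replicate 2 (0.49, adjusted p = 0.0152), and at 25 generations against the Ctrl 25 arrays alone (0.47, adjusted p = 0.0314). The steryl ester lipase gene TGL1 was not among the 35 genes. It rose by 0.44 at 5 (adjusted p = 0.0482) and by 0.83 at 25 generations (adjusted p = 0.00161). The call of TGL1 at 5 generations was lost without any 1 of 10 arrays.

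Of the 3 transport genes, 1 rose, 1 fell and 1 did not pass at either time. AUS1, the ABC transporter for sterol uptake under low oxygen, fell by 0.99 (SE 0.17, adjusted p = 0.000593) and 0.74 (SE 0.17, adjusted p = 0.00406), a 1.99-fold and a 1.67-fold fall. Its ratios were 0.621 to 0.855 in SMG 5 and 0.830 to 0.882 in SMG 25 against 1.13 to 2.04 in Ctrl, with no overlap. HES1 and KES1 encode oxysterol-binding proteins that exchange lipids between membranes. HES1 had ratios of 1.48, 0.870 and 1.29 in SMG 5 and 1.29, 1.31 and 1.10 in SMG 25, against 0.283, 0.386 and 1.31 in Ctrl. The LSMMG arrays overlapped with Ctrl 5 replicates 1 and 2, at 0.908 and 1.31, and with no other Ctrl array. The log2 fold change was 1.25 (SE 0.44, adjusted p = 0.0402) at 5 and 1.30 (SE 0.44, adjusted p = 0.0343) at 25 generations, and 1.81 and 1.87 without those 2 arrays. The call at 5 generations was lost without any 1 of 9 arrays, namely SMG 5 replicate 1 or 3, any SMG 25 array, Ctrl 5 replicate 3 or any Ctrl 25 array (adjusted p 0.0539 to 0.146). The call at 25 generations was lost without any 1 of 7, namely any SMG 25 array, Ctrl 5 replicate 3 or any Ctrl 25 array (adjusted p 0.0618 to 0.101). Against the Ctrl 5 arrays alone the value at 5 generations was 0.59 (adjusted p = 0.233). With the t-test of the study's methods HES1 did not pass at 5 generations (adjusted p = 0.0593). KES1 had ratios of 0.809, 0.991 and 1.01 in SMG 5 and 0.892, 0.985 and 1.01 in SMG 25, against 0.528, 1.12 and 1.47 in Ctrl, with log2 fold changes of -0.14 and -0.10 that did not pass.

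A call for 1 gene of a pair and none for the other does not show that they differ, so the 5 pairs of paralogs were compared within each array, by the log2 ratio of the first minus that of the second. HMG1 minus HMG2 lay between -0.53 and -0.41 in SMG 5 and between -0.10 and 0.03 in SMG 25, against -0.18 to 1.25 in Ctrl. Against Ctrl the difference between HMG1 and HMG2 shifted by -1.12 at 5 generations (exact permutation test, two-sided, p = 0.0238, adjusted over 10 comparisons 0.119), the smallest p that 3 against 6 arrays allow, and by -0.66 at 25 (exact p = 0.238, adjusted 0.264). ARE1 minus ARE2 differed from Ctrl by -0.75 at 5 (exact p = 0.0952, adjusted 0.190) and by -1.38 at 25 generations (exact p = 0.0238, adjusted 0.119). For HES1 minus KES1 the difference was 1.39 and 1.40 (exact p = 0.167 and adjusted 0.209 at both times), with Ctrl arrays from -2.27 to 1.31. YEH1 minus YEH2 differed by -0.64 and -0.53 (exact p = 0.0714 and adjusted 0.179 at both times), and UPC2 minus ECM22 by -0.07 (exact p = 0.690, adjusted 0.690) and 0.36 (exact p = 0.119, adjusted 0.198). None of the 10 differences between paralogs passed after adjustment, and with so few arrays a single pair could not have.

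**Figure D4:**
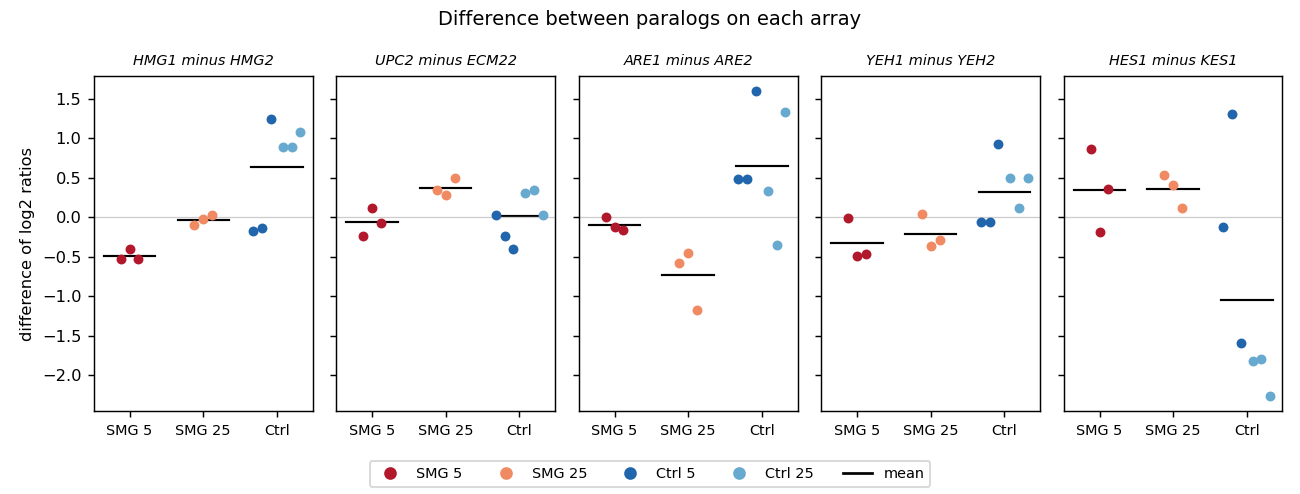
Difference of log2 ratios between the 2 genes of each paralog pair (vertical axis) on each array of SMG 5, SMG 25 and Ctrl, with group means as lines. HMG1 minus HMG2 is below every Ctrl array in SMG 5, and ARE1 minus ARE2 is below every Ctrl array in SMG 25. The other pairs overlap with Ctrl in both LSMMG groups.

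Between the 2 times in LSMMG, 26 of the 35 sterol genes had a higher mean in SMG 25 than in SMG 5, against 46.8% of named probe sets, and the median log2 difference was 0.17. In 18 genes every SMG 25 array lay above every SMG 5 array and in 4 every one lay below, against 24.2% and 25.3% of named probe sets. The largest differences were 0.86 for ARE2, 0.74 for ERG26, 0.71 for ERG8, 0.65 for HMG1 and 0.60 for ERG10. None of the 35 passed in the limma fit over all 12 arrays, in which 1.71% of all probe sets did (1.18% higher, 0.524% lower), 11 had an unadjusted p under 0.05 and the lowest adjusted p was 0.114. The methods' t-test called none either. In a fit to the 6 LSMMG arrays alone, added after the values were seen, whose spread leaves out the Ctrl arrays, 10 of the 35 were higher and 2 lower in SMG 25, beside 13.4% of all probe sets (6.98% higher, 6.4% lower) and 20.5% of named ones (10.8% higher, 9.68% lower). The 10 were ERG10, HMG1, ERG12, ERG8, ERG24, ERG26, ERG27, ERG6, NCP1 and ARE2 (adjusted p 0.00922 to 0.0380) and the 2 were ERG3 and DAP1 (adjusted p 0.0483 and 0.0442). Of these 10, the first 7 also passed in the fit without Ctrl 5 replicates 1 and 2, beside 6.77% of all and 10.6% of named probe sets.

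Among the control arrays, no sterol gene passed between Ctrl 25 and Ctrl 5 in limma or in the methods' t-test, beside 0.134% of all probe sets, although 12 had an unadjusted p under 0.05 and HES1 had the largest difference, -1.32 (adjusted p = 0.0792). With the replicate number as a block the count was also 0. HMG1 was higher in Ctrl 25 than in Ctrl 5 by 0.67 (adjusted p = 0.157) and ERG10 by 0.48 (adjusted p = 0.140). The highest value among the 4 sterol ester genes was 0.35, and the median over the 35 genes was -0.02. The change in LSMMG did not pass as different between the generations, each set against its own controls, for any of the 35 genes (0.167% of all probe sets, 4 sterol genes with an unadjusted p under 0.05, median difference 0.14). For HMG1 that difference was -0.02 and for ERG10 0.11. Without Ctrl 5 replicates 1 and 2, 8 sterol genes rose and 15 fell at 5 generations, and 12 rose and 10 fell at 25. Beside them, 52.9% of all probe sets passed at 5 generations (29.4% higher, 23.5% lower) and 53% at 25 (29.6% higher, 23.4% lower), and of the named ones 76.1% (45% higher, 31.1% lower) and 74.8% (45.2% higher, 29.6% lower). The added falls at 5 generations were ERG8, ERG12, ERG24, ERG6 and KES1, and ERG1 was lost.

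**Figure D5:**
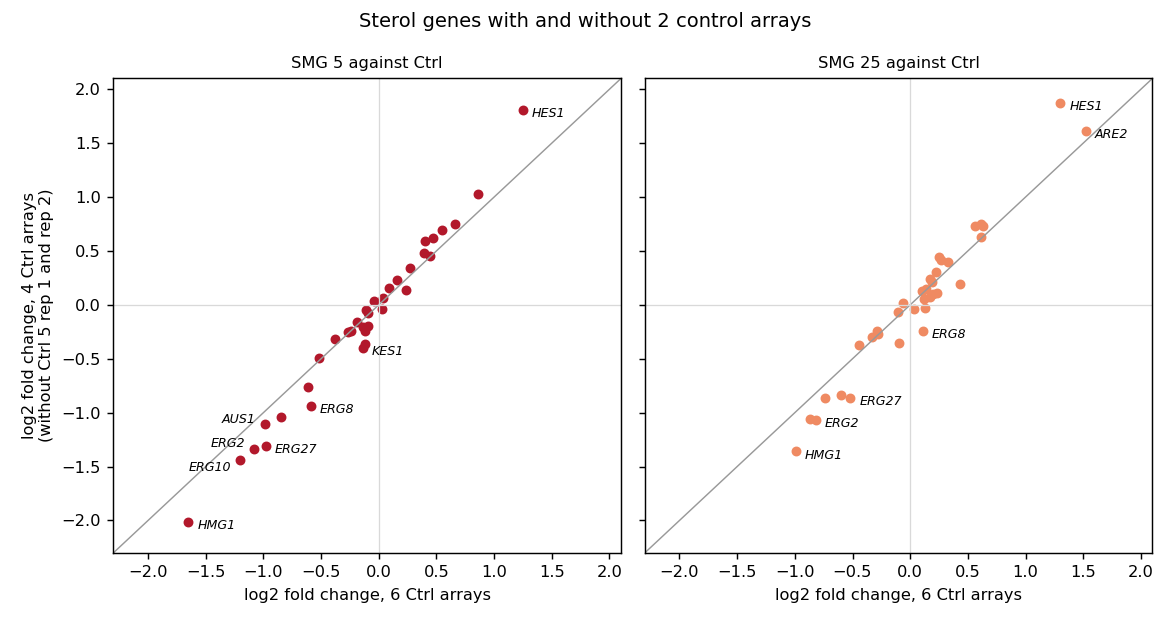
Log2 fold change of each of the 35 sterol genes against all 6 Ctrl arrays (horizontal axis) and against the 4 Ctrl arrays left without Ctrl 5 replicates 1 and 2 (vertical axis), for SMG 5 and SMG 25, with a line of equality. The 2 arrays were picked for lying toward LSMMG, so that values farther from 0 on the vertical axis follow from the choice, as for HES1 with 1.81 against 1.25 in SMG 5.

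Another 39 genes linked to the pathway were counted in the same way. Of these, 8 rose and 10 fell at 5 generations and 12 rose and 10 fell at 25, which is 46.2% and 56.4% of them, beside 40.8% and 39.6% of all probe sets and 61% and 58.4% of named ones. The electron donor CYB5, cytochrome b5, was the gene with the largest change for its error at 5 generations. Its ratios were 0.552, 0.535 and 0.545 in SMG 5 and 0.787, 0.725 and 0.730 in SMG 25, against 1.21, 1.35 and 1.47 (lowest, median, highest) in Ctrl. The 3 groups did not overlap, and Ctrl 5 replicates 1 and 2 were inside the range of the other Ctrl arrays. CYB5 fell by 1.31 (SE 0.08, adjusted p = 4.35e-07) at 5 and by 0.85 (SE 0.08, adjusted p = 6.15e-06) at 25 generations, and it was higher in SMG 25 than in SMG 5 by 0.46 (SE 0.09, adjusted p = 0.0333). The call between SMG 25 and SMG 5 was lost for CYB5 without any 1 of the 6 LSMMG arrays (adjusted p 0.0842 to 0.138), while its falls against Ctrl held. Its reductase gene CBR1 was also higher in SMG 25 than in SMG 5, by 0.51 (adjusted p = 0.0308), as was LAM3 by 0.51 (adjusted p = 0.0445), and HAP1, a heme-dependent activator, was lower by 0.47 (adjusted p = 0.0355). These 4 were the linked genes that passed between the 2 LSMMG times, and CBR1, LAM3 and HAP1 were picked out after their values were seen. Each of these 3 calls was also lost without any 1 of the LSMMG arrays (adjusted p 0.0553 to 0.135 for CBR1, 0.104 to 0.227 for LAM3 and 0.0948 to 0.173 for HAP1). HAP1 lost it without Ctrl 25 replicate 1 too (0.0513), and LAM3 without Ctrl 5 replicate 1 or 3 or Ctrl 25 replicate 1 or 2 (0.0508 to 0.0594). In the methods' t-test none of the 4 passed, with adjusted p from 0.0618 for HAP1 to 0.179 for CBR1.

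Regulators and protein turnover followed. Of the 4 linked regulators (HAP1, ROX1, MOT3 and SUT2), 3 fell at 5 and 4 at 25 generations, and 0 rose. The call of MOT3 at 5 generations was lost without any 1 of 5 arrays. ROX1, the repressor of genes for low oxygen, had ratios of 0.891, 0.699 and 0.724 in SMG 5 and 0.707, 0.768 and 0.821 in SMG 25, against 1.12, 1.60 and 2.51 in Ctrl, with no overlap, and fell by 1.05 at both times (SE 0.23, adjusted p = 0.00352 and 0.00348). SSM4, a ubiquitin ligase of the endoplasmic reticulum that marks Erg1 for degradation, fell by 1.40 (adjusted p = 0.000219) and 1.25 (adjusted p = 0.000490), with ratios of 0.649 to 0.721 in SMG 5 and 0.699 to 0.804 in SMG 25 against 1.21 to 2.39 in Ctrl. NSG2, which encodes a protein that steadies Hmg2, rose by 1.16 (adjusted p = 0.000602) and 0.87 (adjusted p = 0.00399), with ratios of 1.39 to 1.47 in SMG 5 and 1.09 to 1.25 in SMG 25 against 0.477 to 0.928 in Ctrl. Its paralog NSG1, of the same known role, went the other way at 5 generations. NSG1 had ratios of 0.699, 0.670 and 0.730 in SMG 5 and 0.871, 1.004 and 1.21 in SMG 25, against 0.946, 1.28 and 1.57 (lowest, median, highest) in Ctrl, with the SMG 5 arrays below all Ctrl arrays and the SMG 25 arrays overlapping with them. NSG1 fell by 0.81 (adjusted p = 0.00163) at 5 generations and had -0.27 (adjusted p = 0.216) at 25. The genes HRD1 and HRD3, which encode parts of the ligase that degrades Hmg2, were also on the list. HRD1 rose by 0.85 (adjusted p = 9.96e-05) and 0.73 (adjusted p = 0.000295), and HRD3 rose by 0.41 at 25 generations (adjusted p = 0.0108), a call lost without SMG 25 replicate 3 (0.25, adjusted p = 0.0587). The call of HRD3 was also lost with the t-test of the study's methods (adjusted p = 0.216).

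In transfer, export and the side branches, the changes again ran both ways. LAM5, of a family of sterol transfer proteins at membrane contacts, rose by 1.27 (SE 0.12, adjusted p = 8.89e-06) and 1.36 (SE 0.12, adjusted p = 5.57e-06), with ratios of 1.33 to 1.40 in SMG 5 and 1.35 to 1.56 in SMG 25 against 0.444 to 0.665 in Ctrl. NUS1, a subunit of the prenyltransferase that makes dolichol from farnesyl diphosphate, rose by 1.08 (adjusted p = 9.16e-06) and 1.13 (adjusted p = 6.51e-06), with ratios of 1.22 to 1.41 and 1.35 to 1.37 against 0.554 to 0.765 in Ctrl. PRY1, a secreted sterol-binding protein, rose by 1.20 (adjusted p = 0.00656) and 1.25 (adjusted p = 0.00519). ATF2, which acetylates sterols for export, fell by 1.79 (adjusted p = 0.00639) and 1.63 (adjusted p = 0.0111), with ratios of 0.791 to 0.920 in SMG 5 and 0.917 to 0.947 in SMG 25 against 1.07 to 5.64 in Ctrl. In PRY1 and ATF2 the LSMMG arrays did not overlap with Ctrl, and Ctrl 5 replicates 1 and 2 were the Ctrl arrays nearest to them. PRY3 went the other way from PRY1, by -2.08 at 5 and -1.75 at 25 generations, the largest changes of the 39 genes. Its ratios were 0.689 to 0.757 in SMG 5 and 0.738 to 1.17 in SMG 25 against 0.696 to 6.37 in Ctrl, with overlap. Its call was lost at 5 generations against the Ctrl 5 arrays alone (-1.56, adjusted p = 0.0598). At 25 generations it was lost without SMG 25 replicate 1 (adjusted p = 0.0923) or 2 (0.0769).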

How the data were processed

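The deposited values were ratios. The authors made them from Affymetrix Yeast Genome 2.0 arrays with RMA, and GeneSpring was their analysis software. The file shows array medians of 1 and probe set medians of 0.9935 to 1.0105. How this scaling was set is not given in the sources used here. Of 10928 probe sets, 8968 were tested (5498 with 1 gene name, 3470 with none here). The 1746 of Schizosaccharomyces pombe, 213 array controls and 1 with several gene symbols were left out. Ratios were put on the log2 scale with no added constant and fitted with limma 3.58.1 (R 4.3.3) in 3 groups (SMG 5, SMG 25, Ctrl), and in 4 groups for Ctrl 25 against Ctrl 5 and for the interaction. Tests were two-sided, with Benjamini-Hochberg adjustment over all probe sets tested, and SE is limma's standard error. The number of arrays limits the precision.

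Groups came from the sample titles. Arrays of the same replicate number in Ctrl 5 and Ctrl 25 had correlated deviations (0.103 to 0.49). Ctrl 5 replicate 1, however, correlated more with Ctrl 25 replicate 2 (0.4) than with Ctrl 25 replicate 1 (0.103). These correlations thus do not settle whether the arrays are paired by number, and the labels do not say what a number marks. The main fit and the permutation took the arrays as independent. Paralog pairs were compared by exact permutation of the arrays. Values are given by array for sterol genes past 2-fold in either comparison with Ctrl and for paralogs, and for the 8 linked genes past 2-fold with the largest moderated t. Other genes shown by array were picked after their values were seen. The members and lists were chosen with earlier results of these data known. On simulated data of 8968 probe sets the fit found 33, 44, 47 and 50 of 50 probe sets changed by 1.5, 2, 4 and 8-fold, with 9 false calls among the unchanged ones. The simulated noise was independent between arrays and few probe sets changed, without Ctrl arrays set apart. These rates therefore check the code and do not carry over to the real arrays. Alternatives were other scalings, filters and priors, array weights, the methods' t-test, same-generation controls, a replicate block, and leaving out arrays. Promoter motifs were not analysed here.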

Additional observations from a re-analysis of the deposited data

How the results depend on the processing

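No direction that passed turned round under any alternative. Of the calls, 10 of 17 at 5 generations and 9 of 16 at 25 held under every alternative, and 11 and 9 whenever 1 array was left out. With at least 1.5-fold, 2 rose and 7 fell at 5 generations, and 5 rose and 5 fell at 25.

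For SMG 5 against Ctrl, 3 genes rose when set against the Ctrl 5 arrays alone. At least 2-fold, 0 rose with the methods' t-test, quantile normalization, same-generation controls or the replicate block, and 2 without both Ctrl 5 replicates 1 and 2. At least 2-fold, 5 fell with quantile normalization or array weights and 6 without those 2 arrays. Leaving out 1 array gave 3 to 8 rises, 8 to 12 falls, and at least 2-fold 0 to 1 rises and 3 to 5 falls.

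For SMG 25 against Ctrl, 1 gene rose at least 2-fold with quantile normalization or the replicate block. At least 2-fold, 1 fell with quantile normalization, median centring or array weights, and 3 with same-generation controls or without Ctrl 5 replicates 1 and 2. Leaving out 1 array gave 5 to 8 rises, 4 to 9 falls, and at least 2-fold 1 to 2 rises and 0 to 1 falls.

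For SMG 25 against SMG 5, quantile normalization called 4 higher and 1 lower, array weights 12 and 1, the LSMMG arrays alone 10 and 2, and leaving out Ctrl 5 replicates 1 and 2 gave 7 higher. Leaving out any 1 array gave 0 in both directions. Ctrl 25 against Ctrl 5 gave 8 higher and 6 lower with array weights, and 0 to 10 higher and 0 to 5 lower without 1 array (10 and 5 without Ctrl 5 replicate 3). The interaction gave 4 higher and 1 lower with array weights, and 0 to 3 of each without 1 array (3 of each without Ctrl 5 replicate 3). The causes of these shifts were not tested.

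Without 1 array the difference between paralogs ran at 5 and 25 generations from -1.28 to -1.0 and -0.83 to -0.54 for HMG1 and HMG2, -0.16 to 0.01 and 0.28 to 0.43 for UPC2 and ECM22, -0.94 to -0.55 and -1.58 to -1.16 for ARE1 and ARE2, -0.79 to -0.52 and -0.65 to -0.41 for YEH1 and YEH2, and 1.13 to 1.86 and 1.16 to 1.87 for HES1 and KES1.

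Outside the control arrays, the correlation was over 0.1 for 2 of 15 same-numbered pairs. With so few arrays per group these correlations do not settle whether LSMMG arrays are paired by number with Ctrl arrays. With the replicate block 6 sterol genes rose and 10 fell at 5 generations, and 6 rose and 8 fell at 25. HES1 lost its call at both times under the block (adjusted p = 0.0576 and 0.0501), as did ERG1 at 5 (0.0562) and ERG20 at 25 generations (0.0791), and UPC2 passed at 5 (0.0390). The ratios do not show how far a probe set stood above background, so dim genes could not be set apart.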
